A study of Sus scrofa with 12 samples.

Results

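The genes described here are 8 genes of the cardiac Z-disc, M-band and thick filament, namely ACTN2, TCAP, MYOZ2, CSRP3, NEBL, MYOM1, MYOM2 and MYBPC3. They were chosen by name from a list of 10 sarcomere genes. Of the 10, these 8 could be matched to 1 of the 35682 pig gene identifiers in the count tables, and TTN and LDB3 were not analysed here. The measured hearts came from female Yorkshire pigs, which were 10 to 12 weeks old at the first surgery. In that surgery the left anterior descending coronary artery was occluded with a balloon for 60 min and then reperfused. From day 9 after this injury all animals received tacrolimus, mycophenolate mofetil and prednisolone. On day 14 the heart was exposed through the left chest, and the animals were given vascular organoids made of human endothelial progenitor cells and smooth muscle cells, or fibrin glue. Hearts were taken 4 weeks later. RNA was sequenced from 6 border zone libraries, of tissue next to the infarct, and 6 remote zone libraries, of the posterior wall, with 1 library of each region from each of the animals 1022, 1322, 1323, 1623, 1922 and 3622. Which of these animals received organoids was not part of the sample labels. By the methods of the study both treatments were among them, so each region mixed them, and organoid and control animals were not compared.

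The sarcomere is the contractile unit of heart muscle. Thin filaments of actin are anchored at the Z-disc, thick filaments of myosin are linked at the M-band, and the giant protein titin spans from the one to the other. In the heart, Z-disc proteins bear load and are also known as places where mechanical stretch is sensed, and mutations in several of these genes are a known cause of cardiomyopathy.

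The library totals ranged from 15130210 to 30526110 counts in the border zone and from 20091415 to 31618680 in the remote zone. The border zone library of animal 3622 had the lowest total and counts on 28024 genes, against 16932 to 20148 in the other 11. All 8 genes were among the 13844 that passed the filter on low counts. Together they took between 0.662% and 2.33% of the counts of a library, so counting error was small beside the spread between animals. Levels are given as CPM, the usual count relative to the library total, here scaled by TMM, and differences as log2 fold changes of border zone minus remote zone with their standard error (SE). Tests are the quasi-likelihood test of edgeR, adjusted by Benjamini and Hochberg's method over all genes tested, with an adjusted p under 0.05 as the threshold. They measure the spread between the 6 libraries of a region, and the pairing of the regions by animal is given as a second fit, with the animal as a block.

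Markers of ventricular heart muscle were detected in every library of both regions. MYL2, the ventricular regulatory light chain, ranged from 2114 to 11932 CPM in the border zone and from 8822 to 19659 in the remote zone. The troponin TNNT2 ranged from 2357 to 15299 and from 8743 to 18379 CPM. Both genes were lowest in animal 1022, in its border zone. The mean log2 CPM of 16 cardiomyocyte markers was lower in the border zone in 5 of 6 animals. Their summed level had a median of 52228 CPM against 67447 in the remote zone, and it was 13271 for border zone tissue of animal 1022. The mean log2 CPM of 15 fibroblast and matrix markers was higher in the border zone in 6 of 6 animals. Their summed level had a median of 10894 CPM against 2271, and reached 82004 for border zone tissue of animal 1022. By mean log2 CPM, macrophage, smooth muscle and pericyte, atrial and skeletal muscle markers were each higher in the border zone in 5 of 6 animals, and endothelial markers in 3 of 6. The median sums of macrophage, smooth muscle and pericyte, atrial and skeletal muscle markers were 335.2, 1259, 156.5 and 2.39 CPM against 175.7, 1027, 43.6 and 1.43. These are bulk libraries, so fewer cardiomyocytes and less sarcomere RNA in each cardiomyocyte cannot be told apart. The part of the tissue makeup in the values below was not tested, apart from the comparison with the cardiomyocyte list that is given further on.

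None of the 8 sarcomere genes passed the threshold. All 8 had a log2 fold change below 0, which was also true of 46.7% of all genes tested, and their median was -0.40 against 0.04 over all genes. The count past the threshold was 0 of 8 by edgeR without and with the animal as a block and by the Wald test of DESeq2, where 2.07%, 0.296% and 10.2% of all genes passed. At an unadjusted p under 0.05 the count was 2 of 8, MYOM2 and TCAP, without and with the block, where 24.7% and 29.4% of all genes were under that limit. MYOM2 and TCAP also had the lowest fold changes of the 8, at -0.93 and -0.73, and lay at the 0.867 and 2.86 percentile of all genes tested. Only 0.0144% of genes were called lower in the border zone by edgeR. Within animals, 7 of the 8 genes were lower in the border zone in at least 5 of 6, which held for 25.0% of all genes, and in 0 of the 8 did all border zone values lie below all remote zone values, which held for 0.701%.

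A single library set much of the spread. The lowest border zone value of each of the 8 genes was that of animal 1022, and the highest was that of animal 1322. For border zone tissue of animal 1022 the 8 levels summed to 5112 CPM, compared with sums between 15746 and 23136 in the other 5 border zone libraries. The remote zone sums ran from 19631 to 24338 CPM. The highest border zone value of a gene was 3.08 to 7.38 times its lowest with animal 1022, and 1.17 to 3.28 times without it. In the remote zone this ratio was 1.41 to 1.92. Without both libraries of animal 1022 the median log2 fold change of the 8 genes was -0.28, and 0 of 8 passed the threshold, against 1.18% of all genes.

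**Figure D1:**
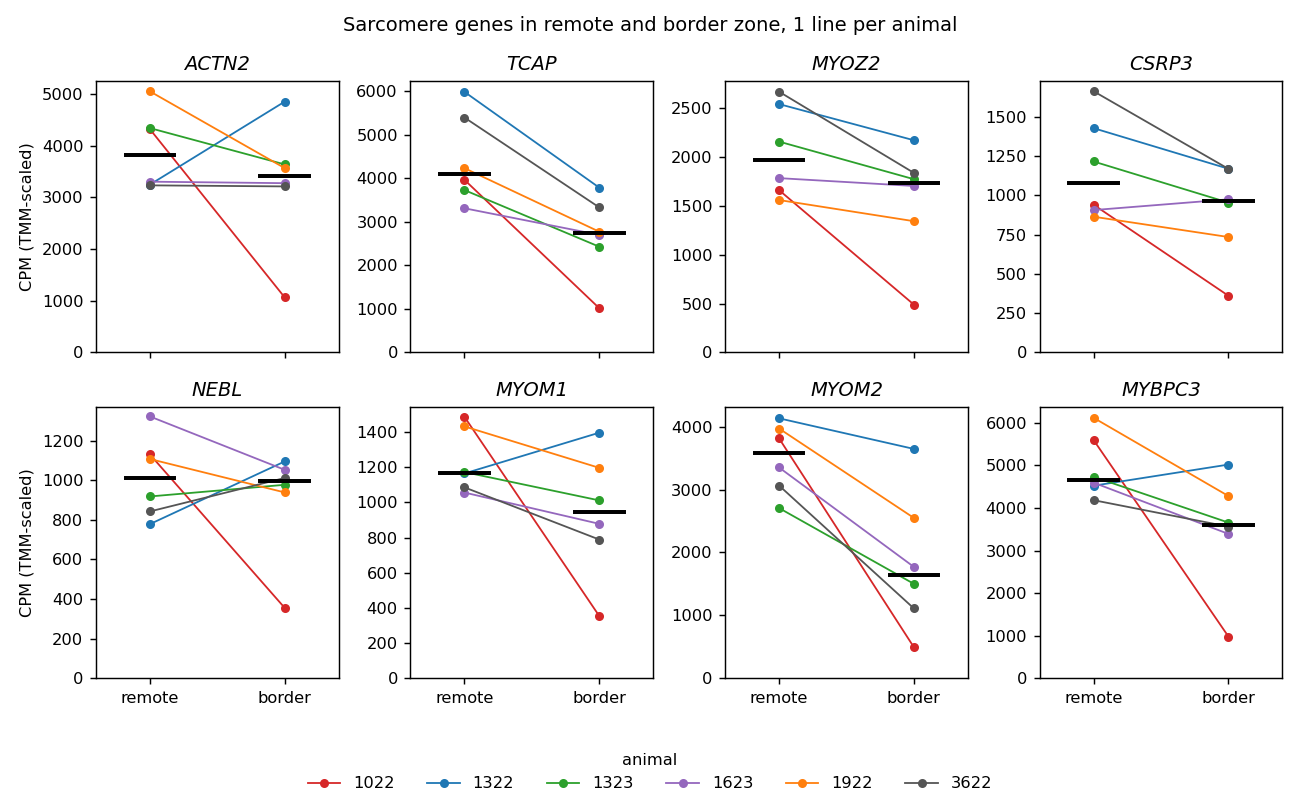
TMM-scaled CPM of the 8 sarcomere genes, 1 panel for each gene with its own axis from 0, in the remote zone (left) and the border zone (right). Each line joins the 2 libraries of 1 animal and the black bars are medians over 6 libraries. The border zone library of animal 1022 is the lowest point of every panel, and TCAP, MYOZ2 and MYOM2 slope down in all 6 animals.

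The Z-disc genes come first. ACTN2 encodes the sarcomeric alpha-actinin, which crosslinks the thin filaments of neighbouring sarcomeres. It lies at chr14:54670727-54742717 on the minus strand of Sscrofa11.1, with 21 exons in its RefSeq model. Its lowest, median and highest levels were 1064, 3421 and 4853 CPM in the border zone and 3233, 3812 and 5052 CPM in the remote zone. Apart from the library of animal 1022, the border zone values lay within or close to the remote zone range. ACTN2 was lower in the border zone in 5 of 6 animals, with log2 differences of -2.02 in animal 1022 and between -0.50 and -0.01 in the other 4, and 0.58 in animal 1322. The fold change was -0.26 (SE 0.30, adjusted p = 0.627 by edgeR), and -0.05 without animal 1022.

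TCAP encodes telethonin, which caps the ends of titin at the Z-disc. The gene is short, with 2 exons, at chr12:22651666-22652904 on the minus strand. TCAP ranged from 1016 to 3785 CPM in the border zone, with a median of 2737, and from 3313 to 5987 CPM in the remote zone, with a median of 4100. The regions overlapped only through 2 border zone libraries, those of animals 1322 and 3622, which exceeded the lowest remote zone library. Within animals, TCAP was lower in the border zone in 6 of 6, with log2 differences from -0.29 in animal 1623 to -1.97 in animal 1022. A gene lower in all 6 animals was not rare, since 11.1% of the genes tested were. The mean level was 1.66 times as high in the remote zone (log2 fold change -0.73, SE 0.30, adjusted p = 0.154 by edgeR). With the animal as a block the adjusted p was 0.109, by DESeq2 it was 0.0519, and over all alternatives it lay between 0.0519 and 0.286.

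MYOZ2 encodes myozenin 2, or calsarcin 1, which ties the phosphatase calcineurin to alpha-actinin. It lies at chr8:104578942-104609367 on the minus strand. Its lowest, median and highest levels were 489.3, 1738 and 2171 CPM in the border zone and 1559, 1970 and 2668 CPM in the remote zone. The border zone was lower in 6 of 6 animals, but the values of the 2 regions overlapped widely, and the difference was -0.07 on the log2 scale in animal 1623. The fold change was -0.41 (SE 0.31, adjusted p = 0.429 by edgeR).

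CSRP3 encodes the muscle LIM protein, a small Z-disc adaptor known for its part in the response of cardiomyocytes to load. It lies at chr2:40219288-40240614 on the plus strand, with 7 exons. CSRP3 ranged from 360.6 to 1169 CPM in the border zone, with a median of 963.8, and from 863.8 to 1662 CPM in the remote zone, with a median of 1078. The regions overlapped, and in animal 1623 alone the border zone value was above the remote zone value. The fold change was -0.39 (SE 0.29, adjusted p = 0.419 by edgeR). Of all gene pairs among the 8, CSRP3 and MYOZ2 had the most similar profiles over the 12 libraries, with a root mean square distance of 0.14 between their centred log2 CPM values.

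NEBL encodes nebulette, the cardiac relative of nebulin, which binds actin at the Z-disc. The gene spans chr10:53602929-53957869 on the plus strand and has 14 RefSeq models, of which the longest holds 10816 bases and the shortest 3236. Its lowest, median and highest levels were 355.3, 994.1 and 1095 CPM in the border zone and 778.4, 1013 and 1322 CPM in the remote zone. NEBL had the smallest fold change of the 8. It was lower in the border zone in 3 of 6 animals and higher in the other 3, with a fold change of -0.17 (SE 0.26, adjusted p = 0.731 by edgeR) that became 0.03 without animal 1022 and 0.06 with scaling by library totals.

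The M-band genes MYOM1 and MYOM2 encode myomesin 1 and myomesin 2, which crosslink the thick filaments in the middle of the sarcomere. Each has 38 exons. MYOM1 lies at chr6:103451206-103593093 and MYOM2 at chr15:33529559-33606928, both on the plus strand. MYOM1 ranged from 353.6 to 1396 CPM in the border zone, with a median of 944.6, and from 1056 to 1486 CPM in the remote zone, with a median of 1168. In animal 1322 the border zone value of MYOM1 was above the remote zone value, and in the other 5 it was below. The fold change was -0.40 (SE 0.28, adjusted p = 0.394 by edgeR), and -0.17 (adjusted p = 0.721) without animal 1022.

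MYOM2 differed most between the regions. Its border zone levels were 493.7 CPM in animal 1022, 1110 in 3622, 1501 in 1323, 1770 in 1623, 2548 in 1922 and 3645 in 1322. Its remote zone levels were 2706 CPM in animal 1323, 3064 in 3622, 3351 in 1623, 3814 in 1022, 3970 in 1922 and 4132 in 1322. All border zone libraries but that of animal 1322 lay below the whole remote zone range. Within animals, MYOM2 was lower in the border zone in 6 of 6, with log2 differences of -0.18 in animal 1322, -0.64 in 1922, -0.85 in 1323, -0.92 in 1623, -1.46 in 3622 and -2.95 in 1022. The mean level was 1.90 times as high in the remote zone (log2 fold change -0.93, SE 0.38, adjusted p = 0.157 by edgeR). With the animal as a block the fold change was -1.14 and the adjusted p was 0.102, and over all alternatives the adjusted p of MYOM2 lay between 0.0520 and 0.317.

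Without animal 1022 and with the remaining animals as a block, the fold changes of MYOM2 and TCAP were -0.81 (SE 0.21, adjusted p = 0.0520 by edgeR) and -0.58 (SE 0.16, adjusted p = 0.0623). In that fit 6.19% of all genes passed the threshold and 2.08% passed as lower in the border zone, and 0 of the 8 sarcomere genes did. The other 6 genes were nearer to 0 there, from -0.29 for MYBPC3 to 0.05 for NEBL.

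MYBPC3 encodes the cardiac myosin-binding protein C, which lies on the thick filament and tunes the binding of myosin to actin. The gene is at chr2:15247679-15269714 on the plus strand. MYBPC3 ranged from 979.2 to 5022 CPM in the border zone, with a median of 3611, and from 4185 to 6120 CPM in the remote zone, with a median of 4665. The border zone values of animals 1322 and 1922 lay inside the remote zone range and the other 4 lay below it. The fold change was -0.51 (SE 0.32, adjusted p = 0.331 by edgeR), or -0.28 without animal 1022, with 5 of 6 animals lower in the border zone.

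**Figure D2:**
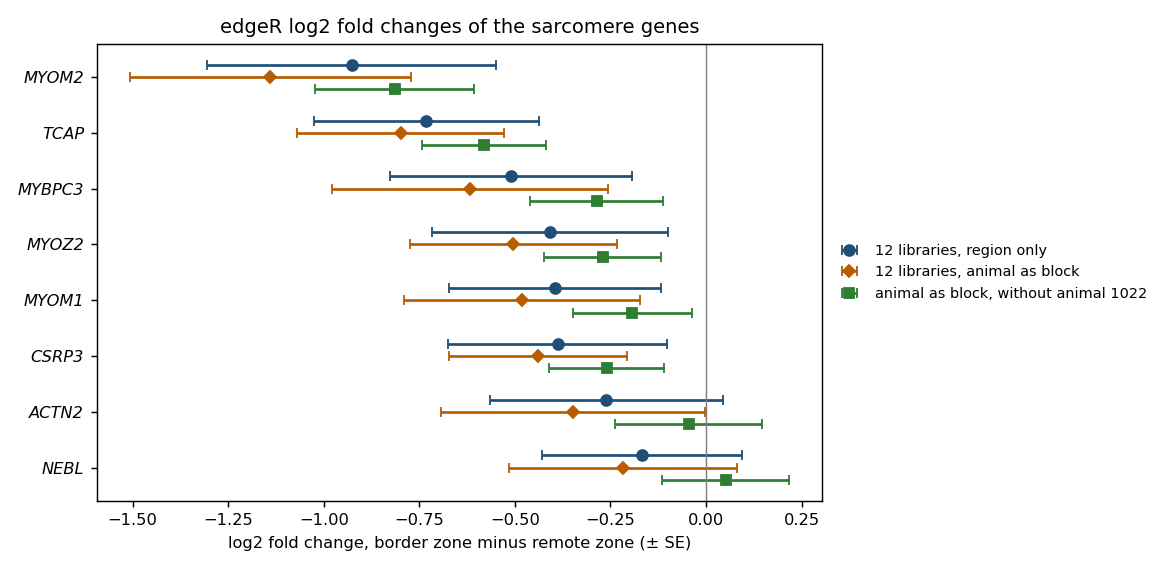
Log2 fold change of the 8 sarcomere genes, border zone minus remote zone, with the SE as error bar, from edgeR on 12 libraries, on 12 libraries with the animal as a block, and with the animal as a block without animal 1022. MYOM2 and TCAP lie lowest in all 3 fits, and the fold changes of ACTN2 and NEBL without animal 1022 are -0.05 and 0.05.

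Per kilobase of the longest RefSeq model, TCAP had the highest median level of the 8 genes, at 2810 CPM per kb in the border zone and 4210 in the remote zone. MYOZ2 followed with 1148 and 1301 CPM per kb and CSRP3 with 1044 and 1167. MYBPC3 and ACTN2 had median levels of 823.1 and 718.8 CPM per kb in the border zone and 1063 and 801.1 in the remote zone. The myomesins were lower, MYOM2 with 330.7 and 724.4 CPM per kb and MYOM1 with 167.7 and 207.5. NEBL was lowest at 91.9 and 93.6 CPM per kb, and 307.2 and 312.9 per kilobase of its shortest model, so that its place below MYOM1 rests on the model chosen. The order of the 8 was the same in both regions with the longest models. In the remote zone the range of TCAP lay above all others, those of neighbours in the order from MYOZ2 to MYOM2 overlapped, and MYOM1 and NEBL lay apart below them.

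The ratio of 2 genes within a library does not depend on how the libraries are scaled. For MYOM2 over MYOM1, the log2 ratio of counts ranged from 0.48 to 1.38 in the border zone, with a median of 0.79, and from 1.21 to 1.83 in the remote zone, with a median of 1.48. The border zone ratio of animal 1322 was the only one inside the remote zone range. Within animals the ratio was lower in the border zone in 6 of 6, from -1.003 in animal 3622 to -0.38 in animal 1922, and the difference of -0.88 in animal 1022 lay inside that range. The mean difference was -0.67 ± 0.24 (SD, n = 6 animals). The two-sided exact permutation test of sign changes gave p = 0.03125. With 6 animals no smaller p can be reached. Adjusted over the 3 ratios tested, by Benjamini and Hochberg's method, it was 0.09375 in this exact test. Without animal 3622 the mean difference was -0.60. An unpaired two-sided exact permutation test over the 12 libraries gave an adjusted p of 0.0195.

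The ratio of NEBL over TCAP was chosen after the data were seen, in place of TTN over TCAP, so its p is not independent evidence, and it counts as 1 of the 3 ratios in the adjustment. The log2 ratio ranged from -1.79 to -1.31 in the border zone and from -2.94 to -1.33 in the remote zone. It was higher in the border zone in 5 of 6 animals, and the exception was animal 1623 with -0.03. The mean difference was 0.58 ± 0.45 (SD, n = 6 animals), with p = 0.0625 and an adjusted p of 0.09375 by the exact test. The highest difference, 1.15, was that of animal 1322, followed by that of animal 3622, with ratios of -1.72 in the border zone and -2.68 in the remote zone. Their remote zone libraries had the highest shares of counts on mitochondrial protein genes, 21.4% and 33.5%, and higher levels of the members with short transcripts, to which TCAP belongs, than of those with long ones, to which NEBL belongs. TCAP and NEBL themselves enter these levels of short and long members, so the latter are not independent of the ratio. The part of these features in the ratio was not tested. For CSRP3 over ACTN2, the difference was -0.07 ± 0.54 (SD, n = 6 animals), and the exact test gave p = 0.8125, also after adjustment. That ratio was lower in the border zone in 3 of 6 animals, and its extremes were -0.87 in animal 1322 and 0.64 in animal 1022.

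**Figure D3:**
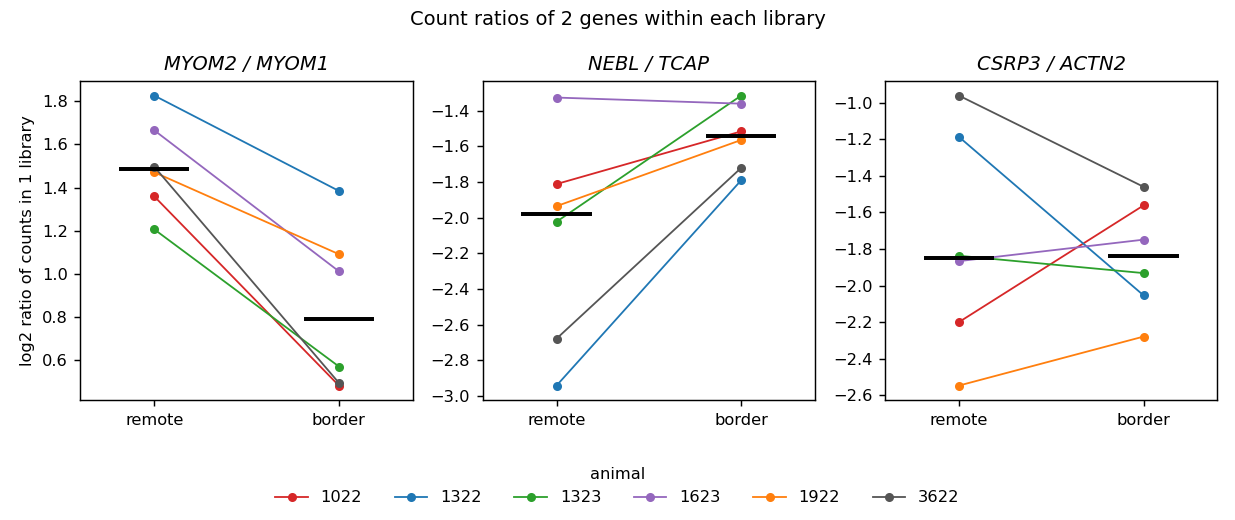
Log2 ratio of the counts of MYOM2 to MYOM1, NEBL to TCAP and CSRP3 to ACTN2 in each library, in the remote zone and the border zone. Each line joins the 2 libraries of 1 animal and black bars are medians over 6 libraries. The lines of MYOM2 to MYOM1 slope down in all 6 animals, and those of CSRP3 to ACTN2 cross.

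The sarcomere genes were also set against the mean log2 CPM of the 16 cardiomyocyte markers of the same library, a list that holds none of them. That list was itself lower in the border zone of animal 1022, with a log2 difference of -2.27, and lay between -0.65 and 0.06 in the other 5 animals. Relative to it, MYOM2 was lower in the border zone in 6 of 6 animals, by a mean of -0.50 ± 0.24 (SD, n = 6 animals). MYOM1 lay on the other side, with a mean of 0.17 ± 0.12 and 0 of 6 animals lower. NEBL, ACTN2, CSRP3 and MYOZ2 had means of 0.44, 0.30, 0.23 and 0.16, each with 1 of 6 animals lower, and MYBPC3 and TCAP had means of 0.02 and -0.14 with 3 and 4 of 6 animals lower. Animal 1022 had the highest values of CSRP3, MYOZ2 and TCAP, at 0.89, 0.51 and 0.31, which raised their means. Their medians were 0.18, 0.17 and -0.05 over 6 animals, and 0.14, 0.12 and -0.06 without animal 1022. Relative to the 7 thin and thick filament genes of that list alone, MYOM2 had a mean of -0.38 and was lower in 5 of 6 animals. No test was made of these differences. With that shorter list the means of MYOM1, MYOZ2, MYBPC3 and TCAP were 0.29, 0.27, 0.14 and -0.02, with 1, 0, 3 and 4 of 6 animals lower.

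The profile of MYOM2 over the 12 libraries also stood farthest from those of the other members. The root mean square distance between its centred log2 CPM values and the mean of the other 7 genes was 0.50, against 0.19 to 0.35 for the rest. Its nearest member was MYBPC3, at 0.40, and its farthest was CSRP3, at 0.67. ACTN2 and MYOM1 were 0.17 apart. All 8 profiles share the low border zone library of animal 1022. Of 11718 other genes with a symbol, the 10 with profiles nearest to the mean of the 8 sarcomere genes included DNAJA3, NDUFAF5, MRPS35, NDUFAF6, VDAC1, GRB14, SH3YL1, UBE2D4 and PDLIM5, at distances from 0.08 for DNAJA3 to 0.12 for PDLIM5, where the median over all genes tested was 0.70. Among these, PDLIM5 is a Z-disc protein, VDAC1 is the porin of the outer mitochondrial membrane, and NDUFAF5 and NDUFAF6 are assembly factors of respiratory complex I.

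The RefSeq gene models of the same genome build give the 250 bases before each gene start (NCBI Sus scrofa Annotation Release 106). That of MYOM2 is shown because MYOM2 had the lowest fold change of the 8, and that of MYBPC3 because its profile was nearest both to MYOM2 and to the mean of the other members. Each is given 5′ to 3′ on the strand of the gene, with matches to a MEF2 site, CATTCC or GATAA on either strand in capitals. The windows are chr15:33529309-33529558 for MYOM2 and chr2:15247429-15247678 for MYBPC3, both on the plus strand.
MYOM2: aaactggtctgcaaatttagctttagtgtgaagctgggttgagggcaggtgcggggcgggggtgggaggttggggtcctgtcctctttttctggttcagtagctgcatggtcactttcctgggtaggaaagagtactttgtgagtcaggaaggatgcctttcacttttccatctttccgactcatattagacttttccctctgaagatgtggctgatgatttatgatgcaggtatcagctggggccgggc
MYBPC3: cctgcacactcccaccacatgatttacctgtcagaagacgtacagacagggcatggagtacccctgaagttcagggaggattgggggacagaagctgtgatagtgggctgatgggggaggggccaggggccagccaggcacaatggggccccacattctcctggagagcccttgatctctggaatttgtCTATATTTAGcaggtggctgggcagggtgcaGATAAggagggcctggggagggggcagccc
The window of MYBPC3 held 1 match to the A/T-rich MEF2 site, at position -61 from the gene start, and 1 to GATAA, at position -30. The window of MYOM2 held no match to either. MEF2 proteins are transcription factors of muscle genes. Of the 8 sarcomere genes, 3 had a MEF2 match in this window, MYBPC3 and MYOZ2 among them, against 2.55% of all 19531 windows of the same length in the annotation. GATAA, the core of a GATA factor site, was found in 3 of 8 windows against 19.1%, the muscle CAT motif CATTCC in 1 of 8 against 10.3%, and the E-box CANNTG, not capitalised, in 7 of 8 against 61.9%. TATAAA was found in 0 of 8 and 9.77%, and the CArG box in 0 of 8 and 1.31%. All were searched on both strands. A match shows that these letters are in the window, and binding was not measured.

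Genes that work beside the 8 were taken from 5 lists of 66 genes, of which 61 passed the filter. By edgeR 1 of these 61 passed the threshold, where 2.07% of all genes did, and 0 passed with the animal as a block, where 0.296% did. By DESeq2, which gave a p-value for 63 genes of the lists, 8 passed. Over all genes 1719 passed, of 28693 with a p-value, or 10.2% of the 16776 with an adjusted p. Of the 11 genes tested of the M-band list, 10 had a fold change below 0 and 0 passed, with a median of -0.40, or -0.19 without animal 1022 and -0.17 with library totals. Its lowest genes were CKM, the muscle creatine kinase that docks at the M-band, with -0.83 (SE 0.39, adjusted p = 0.202 by edgeR), and KY with -0.81 (adjusted p = 0.336), or -0.64 and -0.47 without animal 1022. CKM was lower in the border zone in 6 of 6 animals, with medians of 7577 and 13772 CPM. OBSL1, with -0.20, was among its highest.

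The Z-disc partners had no common direction. Of 25 genes tested, 16 had a fold change above 0 and 9 below it, 0 passed, and the median was 0.05, or 0.19 without animal 1022 and 0.31 with library totals, where the median of all genes was 0.32. NEB, the giant ruler of the thin filament in skeletal muscle, had 1.16 (adjusted p = 0.205 by edgeR) and the actin-binding repeat protein XIRP2 had 0.78 (adjusted p = 0.226), while KLHL41 and PDLIM5 had -0.46 and -0.38. XIRP2 had an adjusted p of 0.0999 by edgeR with the animal as a block, and of 0.278 without animal 1022. With both changes together it passed with an adjusted p of 0.0327, as 1 of the 25 genes, where 6.19% of all genes passed. Of 6 genes linked to titin and stretch, 4 had a fold change above 0 and 0 passed, with a median of 0.67. By DESeq2 2 of the 8 genes with a p-value passed, where 10.2% of all genes with an adjusted p did. With library totals 2 of 6 passed, where 11.2% of all genes did. CAPN3, a titin-bound calpain, had 1.95 (SE 0.55, adjusted p = 0.0717 by edgeR) at border zone levels of only 1.12 to 11.6 CPM, and 1.26 (adjusted p = 0.191) without animal 1022. MYBPC2, the fast skeletal form of myosin-binding protein C, had 1.67 (adjusted p = 0.0879 by edgeR) at border zone levels of only 0.515 to 3.48 CPM. ANKRD23 and RBM20, a splicing factor of titin, had -0.28 and -0.15. Of 11 genes of sarcomere assembly and thin filament ends, 7 had a fold change below 0 and 0 passed, with a median of -0.11, or -0.02 without animal 1022 with 5 of 10 genes below 0. They ranged from the methyltransferase SMYD2 at -0.60 and MYOCD at -0.35 to SMYD1 at 0.24 and LMOD3 at 1.14. LMOD3 had border zone levels of only 0.29 to 0.82 CPM. Without animal 1022, MYOCD and SMYD1 had -0.14 and 0.53, and LMOD3 was under the filter.

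**Figure D4:**
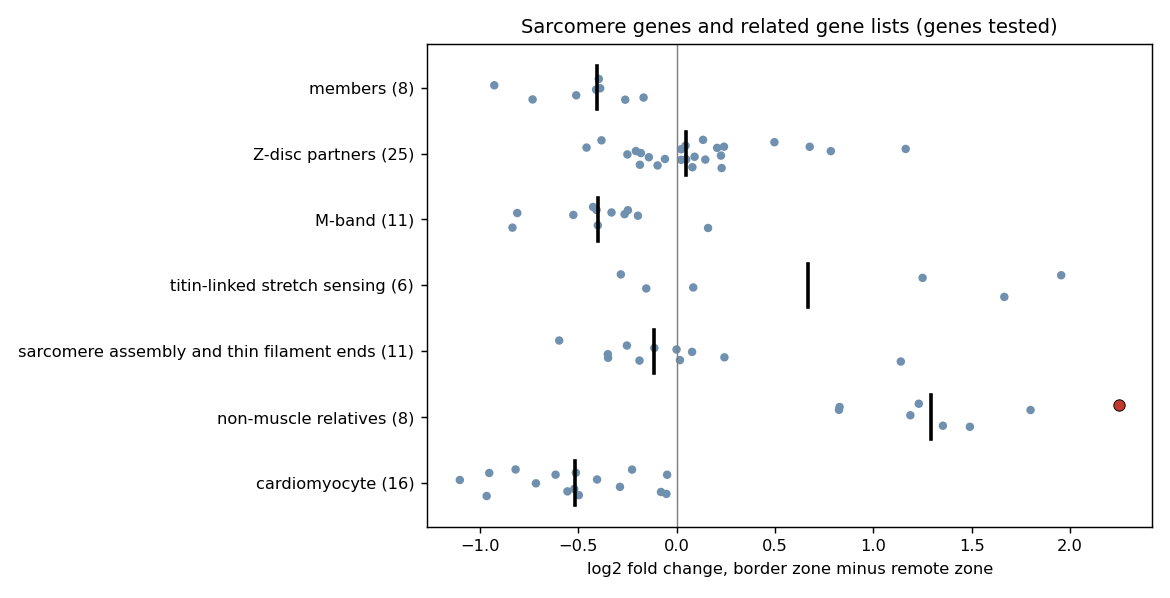
Log2 fold change of border zone minus remote zone for the 8 sarcomere genes, 5 lists of related genes and the cardiomyocyte markers, 1 point for each gene tested, with the median as a black bar and the number of genes in brackets. The point with a dark outline is CSRP2, the only gene of these lists with an adjusted p under 0.05, and all 8 non-muscle relatives lie above 0.

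The relatives of the sarcomere genes listed as non-muscle, among them a gene known from smooth muscle, lay on the other side of 0. All 8 tested had a fold change above 0, from 0.83 to 2.25 with a median of 1.29, and 1 passed the threshold, where 2.06% of all genes were called higher. The count that passed rested on the fit. It was 0 of 8 with the animal as a block, 6 of the 7 genes that DESeq2 gave an adjusted p, and 7 of 8 with scaling by library totals, where 0.296%, 10.2% and 11.2% of all genes passed. Without animal 1022 all 8 were again above 0, but the median was 0.66, and 2 passed, or 4 with the block, against 1.18% and 6.19% of all genes. The gene that passed was CSRP2, a LIM protein of the family of CSRP3 that is known from smooth muscle. CSRP2 ranged from 6.48 to 44.2 CPM in the border zone, with a median of 13.5, and from 2.06 to 5.88 CPM in the remote zone, with a median of 3.27. The regions did not overlap, as for 1.99% of all genes with a higher border zone, and CSRP2 was higher in the border zone in 6 of 6 animals (log2 fold change 2.25, SE 0.44, adjusted p = 0.0276 by edgeR). With the animal as a block its adjusted p was 0.0564, and without animal 1022 its fold change was 1.70 (adjusted p = 0.0371).

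ACTN1, the non-muscle alpha-actinin, ranged from 56.9 to 499.1 CPM in the border zone and from 40.3 to 55.8 CPM in the remote zone, with medians of 113.6 and 49.0. The lowest border zone library was above the highest remote zone library. The fold change of ACTN1 was 1.80 (SE 0.44, adjusted p = 0.0501 by edgeR), and 1.36 with an adjusted p of 0.0903 with the animal as a block. Without animal 1022 it was 1.01 with an adjusted p of 0.0329. FLNA, LASP1 and CSRP1 had 1.49, 1.35 and 1.19, and ACTN4 and LIMCH1 had 0.83 each, with adjusted p-values from 0.0861 to 0.132 by edgeR. Without animal 1022, FLNA, LASP1, CSRP1 and ACTN4 had 0.65, 0.53, 0.47 and 0.46, and LIMCH1 had 0.83. Markers of other cell types were higher in the border zone too. Of the 15 fibroblast and matrix markers, 15 had a fold change above 0, with a median of 2.93. Of these, 13 passed the threshold, or 2 with the animal as a block, against 2.07% and 0.296% of all genes. Of the 12 macrophage markers, 12 had a fold change above 0, with a median of 1.58, and of the 12 smooth muscle and pericyte markers 8 did, with a median of 0.96. By edgeR 0 genes of both lists passed, with 12 and 9 at an unadjusted p under 0.05, against 24.7% of all genes. By DESeq2 6 of 11 and 4 of 11 with a p-value passed, against 10.2% of all genes with an adjusted p. All 3 lists had their highest sum in the border zone library of animal 1022. Without that animal the medians of the fibroblast, macrophage and smooth muscle lists were 1.81, 0.62 and 0.51. In that fit 12 of 15, 0 of 12 and 0 of 12 passed, against 1.18% of all genes. At an unadjusted p under 0.05 there were 15, 4 and 5, against 2360 of all 13831 genes tested. The part of the 3 lists in the values of the non-muscle relatives was not tested.

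Within animals, the ratio of CSRP2 to CSRP3 was higher in the border zone in 6 of 6, by a median of 2.10 and at least 1.33 on the log2 scale. In 5 of 6 animals the border zone had more ACTN1 relative to ACTN2 (median 1.30), more ACTN4 relative to ACTN2 (median 0.81) and more CSRP1 relative to CSRP3 (median 0.94). The ratio of LASP1 to NEBL was higher in 4 of 6 and that of NEB to NEBL in 5 of 6, with medians of 1.01 and 1.02. For MYOM3, the remaining myomesin, the ratio to MYOM1 had a median change of -0.02 and was higher in 3 of 6 animals.

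**Figure D5:**
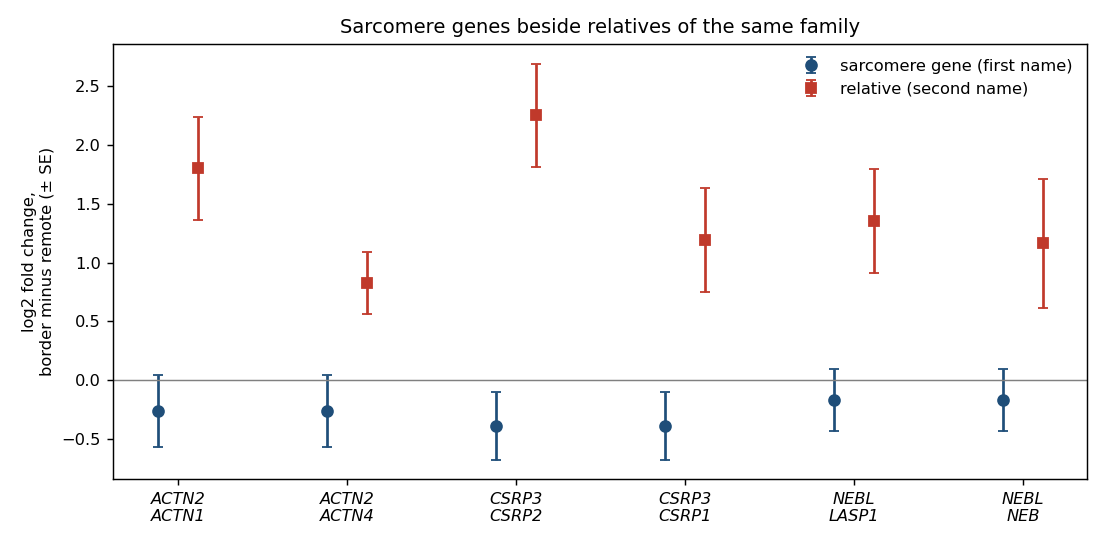
Log2 fold change of border zone minus remote zone, with the SE as error bar, of ACTN2, CSRP3 and NEBL (blue circles) and of a relative of each (red squares), from edgeR on 12 libraries. Every blue circle lies below 0 and every red square above 0, and of the genes shown CSRP2 alone had an adjusted p under 0.05.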

How the data were processed

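RNA was measured by poly(A)-enriched, nondirectional sequencing of paired 150 bp reads in 12 libraries of 6 pigs. The values deposited by the authors are unnormalized gene counts. Reads had been aligned by STAR 2.7.10a to the Sscrofa11.1 genome and assigned to genes (Ensembl release 113) by featureCounts 2.16.1. Options for reads that match several genes were not given in the sources used here, so counts of near-identical copies are uncertain, and reads of overlapping genes on opposite strands cannot be told apart.

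Region and animal came from the sample titles alone. The extraction text of the labels names the border zone for all samples, and it names other extraction kits than the methods of the study. Of 35682 identifiers, 15623 had a symbol by the reference table, which held none for TTN or LDB3. Counts were analysed with edgeR 4.0.16 in R 4.3.3 (filterByExpr, TMM scaling, robust quasi-likelihood test with region as the only term, prior count 2 for log2 CPM), with DESeq2 1.42.0 as an alternative, and with SciPy 1.17.1 in Python 3.11.15 for exact tests. The SE of a fold change is its size divided by the square root of F. An adjusted p that DESeq2 did not give was left out. The scripts were tested on simulated data. Both libraries of a number came from the same animal, which is where the pairing comes from. Their deviations from the region means correlated across genes with a mean r of 0.35. The lowest r was -0.03 (animal 1022), the highest 0.57 (animal 1323), and 4 of the 6 exceeded 0.1. No pair of libraries was alike within sampling noise, the lowest chi-square being 28.2 per gene.

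The members and gene lists were chosen with earlier results of these data known. Named were all members, genes of the 5 lists past the threshold and the 2 highest and 2 lowest fold changes of each list, and the 10 nearest profiles. The remaining non-muscle relatives and the ratios to relatives were added after values were seen, as were the fits with the animal as a block and each animal left out, and the ratio of NEBL to TCAP, which took the place of TTN to TCAP. The other alternatives were DESeq2 size factors, library totals, other filters, leaving out mitochondrial genes or each animal, and a prior count of 0.5. Some items that this rule names are not reported here.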

Additional observations from a re-analysis of the deposited data

Results flagged for a closer look

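In 5 of the 8 sarcomere genes the border zone library of animal 1022 stood apart from the other 5 border zone libraries by Dixon's criterion for 6 values. Its log2 CPM was 10.06 for ACTN2, where the next lowest library had 11.65. For MYBPC3 it was 9.936 against 11.73, for TCAP 9.988 against 11.25, for MYOZ2 8.935 against 10.39 and for NEBL 8.473 against 9.874. Of the 22 groups of 6 values tested, 5 had such a library, all of them this one. Chance gives about 1 in 20, and the genes share the library, so these are not 5 separate events. The summed cardiomyocyte and fibroblast markers of that library, 13271 and 82004 CPM, were the lowest and the highest of the 6 border zone libraries. Their part in the low values was not tested.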

How the results depend on the processing

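The count of sarcomere genes past the threshold was 0 under every alternative. Of 152 single fold changes under the alternatives, 149 were below 0, and the 3 above it were those of NEBL, at 0.058 with library totals, 0.027 without animal 1022 and 0.051 with the replicate block without animal 1022. NEBL ranged from -0.31 to 0.027 with 1 animal left out. The median of the 8 was -0.40, ranged from -0.53 to -0.28 with 1 animal left out and from -0.61 to -0.27 with the block and 1 animal left out, and was -0.14 with library totals, where the median of all genes moved from 0.04 to 0.32. The count over all genes was 287. It was 41 with the replicate block by animal, 1719 by DESeq2, 1551 with library totals, 139 without a filter, 149 with at least 10 counts in every library, 0 to 519 with 1 animal left out (519 without animal 1322, 0 without animal 1623 or 3622) and 0 to 856 with the block and 1 animal left out (856 without animal 1022, 51 without animal 1322). For the related lists the count of 1 became 0 with the block, 8 by DESeq2 (of 63 genes with a p-value), 9 with library totals, 0 to 3 with 1 animal left out and 0 to 5 with the block and 1 animal left out. With the block, 2 and not 13 of the 15 fibroblast and matrix markers passed. It changed no call of a sarcomere gene. MYOM2 over MYOM1 was -0.67 with and without pairing, with an adjusted p of 0.09375 and 0.0195 by exact permutation, so it passed only without pairing, and ranged from -0.72 to -0.60 with 1 animal left out, where 5 animals allow no p below 0.0625. CSRP3 over ACTN2 ranged from -0.22 to 0.086 and changed sign without animal 1322 (0.086) and without animal 3622 (0.012). The causes were not tested. The planned ratio of TTN to TCAP was not run. With 6 animals, the spread between them and not the depth limited the precision.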

Other observations

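After the values were seen, the members with short transcripts (TCAP, MYOZ2 and CSRP3, with longest models under 2000 bases) were set against the 5 with longest models of at least 4000 bases. The mean log2 CPM of the short members exceeded that of the long ones in the remote zone libraries of animals 3622 and 1322, by 0.48 and 0.32, and in the border zone library of animal 3622, by 0.28. In the other 9 libraries the difference lay between -0.68 and -0.04. The share of counts on mitochondrial protein genes was 33.5%, 21.4% and 15.6% in those 3 libraries, and 33.5% and 21.4% were the highest shares of the 12. The border zone library of animal 1922 had a share of 17.3%, above the 15.6% of animal 3622, and a difference of -0.61. The difference between short and long members was lower in the border zone in 3 of 6 animals, with a median change of -0.01. No test was made, and no cause was tested.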
